A study of Mus musculus with 9 samples.

Results

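Rsad2, Cmpk2, Bst2, Isg20, Sp100 and Lgals3bp are genes known for their induction by interferon, and their products act against viruses or in the cell's response to them. They were taken by symbol from 19937 genes that could be named on Affymetrix Mouse Gene 1.0 ST arrays, and all 6 were measured. The genes were proposed with their levels on these arrays in view, so their own differences between groups are given as a description, with no p-value. Whether they were called in the model fitted over all genes is stated beside the share of all genes called and supports nothing. The arrays carried RNA of MC3T3-E1 subclone 4 cells, a line of mouse preosteoblasts from calvaria, the roof of the skull. All cells had been infected with a lentivirus, sorted by green fluorescent protein and grown until nearly confluent. There were 3 groups of 3 biological replicates, each on an array of its own: cells with scramble shRNA at day 0, while proliferating (Scr day 0), cells with scramble shRNA at day 9 of osteogenic differentiation in ascorbic acid and beta-glycerophosphate (Scr day 9), and cells with shRNA against Runx2 at day 9 of the same culture (shRunx2 day 9). Runx2 is the transcription factor that directs osteoblast differentiation. The sources name a single shRNA against Runx2, no shRunx2 cells were profiled at day 0, and uninfected cells were not part of the comparison. The Runx2 transcript itself was not analysed here. Beyond biological replicate, the sources do not say what separated the cultures.

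Cells that sense viral nucleic acid release type I interferon, which binds its receptor on the same and neighbouring cells. The receptor's kinases activate Stat proteins, and a complex of Stat proteins with Irf9 enters the nucleus and binds the interferon-stimulated response element (ISRE) in the promoters of antiviral genes. Many of these genes are also transcribed at a low level in the absence of infection, in fibroblasts and other connective tissue cells as in immune cells. Rsad2 encodes viperin, a radical SAM enzyme that converts CTP into a nucleotide that ends viral RNA chains. Cmpk2 encodes a mitochondrial nucleotide kinase that acts on UMP, CMP and dUMP. Bst2 encodes tetherin, a membrane protein that holds budding virus particles on the cell surface. Isg20 encodes an exonuclease that degrades RNA and DNA from the 3′ end. Sp100 encodes a constituent of PML nuclear bodies, the nuclear foci that repress incoming viral genomes. Lgals3bp encodes a secreted glycoprotein that binds galectins and extracellular matrix.

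The promoters of these genes differ in the elements they hold. Whether these elements bear on how the genes moved was not tested. A window from 250 bases before to 50 bases after each annotated start was read from RefSeq on GRCm38.p6, and all 6 genes matched. The motifs searched on both strands were the ISRE core GAAANNGAAA, a more widely spaced pair of the same repeats, GAAANNNGAAA, the GAS element TTCNNNGAA that Stat dimers bind, and the Runx hexamer TGTGGT. The spaced pair was added after the sequences had been seen. Among all 32851 windows of this length, 3.44% held the ISRE core, 2.75% the spaced pair, 8.3% the GAS element and 16.8% the hexamer. The windows of Rsad2, Cmpk2 and Bst2 are given whole, with matches to the ISRE core, the spaced pair and the Runx hexamer in capitals, each read in the direction of the gene.
Rsad2 (chr12:26456403-26456702, minus strand): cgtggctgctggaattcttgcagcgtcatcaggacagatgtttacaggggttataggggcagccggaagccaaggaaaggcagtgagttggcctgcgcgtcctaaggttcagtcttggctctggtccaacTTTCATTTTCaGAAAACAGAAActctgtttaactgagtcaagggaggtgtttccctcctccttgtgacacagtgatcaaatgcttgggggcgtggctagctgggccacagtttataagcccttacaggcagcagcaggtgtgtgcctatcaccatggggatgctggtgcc
Cmpk2 (chr12:26468965-26469264, plus strand): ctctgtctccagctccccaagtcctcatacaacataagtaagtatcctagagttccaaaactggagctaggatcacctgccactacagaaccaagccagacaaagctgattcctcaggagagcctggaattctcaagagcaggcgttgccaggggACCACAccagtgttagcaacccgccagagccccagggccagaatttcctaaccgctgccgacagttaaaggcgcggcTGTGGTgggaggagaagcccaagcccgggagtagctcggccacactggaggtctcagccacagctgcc
Bst2 (chr8:71537423-71537722, minus strand): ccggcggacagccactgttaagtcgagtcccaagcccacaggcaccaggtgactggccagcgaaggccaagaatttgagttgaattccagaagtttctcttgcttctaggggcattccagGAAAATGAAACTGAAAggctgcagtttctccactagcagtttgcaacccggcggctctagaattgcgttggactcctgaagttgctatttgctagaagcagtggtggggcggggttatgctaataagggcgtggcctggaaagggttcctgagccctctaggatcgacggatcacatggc

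Rsad2 held an ISRE core on its opposite strand, beginning 120 bases before the start, and next to it a spaced pair beginning 109 bases before the start. Bst2 held a run of GAAA repeats that gave overlapping ISRE cores, beginning 130 and 124 bases before the start, and the first of these overlapped a GAS element beginning 136 bases before the start. Cmpk2 held neither the ISRE core nor the spaced pair in this window. It held the Runx hexamer at 95 bases before the start on the opposite strand and at 18 bases before the start on the gene's own strand. Rsad2 and Cmpk2 are neighbours on chromosome 12 with no other RefSeq gene between them, and they are transcribed away from each other from starts 12763 bases apart. For Sp100 and Lgals3bp, a stretch of 60 bases around the spaced pair is given in the same way.
Sp100 (chr1:85649917-85649976, plus strand): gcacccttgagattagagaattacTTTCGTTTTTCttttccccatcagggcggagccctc
Lgals3bp (chr11:118401941-118402000, minus strand): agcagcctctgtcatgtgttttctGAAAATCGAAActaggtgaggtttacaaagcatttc

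The spaced pair of Sp100 lay on the opposite strand, 47 or 73 bases before its annotated starts, whose windows overlap. That of Lgals3bp began 17 bases before the start. Isg20 has 3 annotated starts, and none of their windows held the ISRE core or the spaced pair. A GAS element lay 73 bases before its first start and a Runx hexamer 176 bases before the third. The ISRE core was thus found for 2 of the 6 genes, the spaced pair for 3, the GAS element for 2 and the hexamer for 2. Among all 27025 genes with a window, 3.99%, 3.17%, 9.55% and 18.9% held these motifs. The spaced pair was added after these same sequences had been seen, so nothing is read from its count. The counts are of matches of letters, and no binding was measured on these arrays. The study also mapped Runx2 binding in MC3T3-E1 cells by chromatin immunoprecipitation and sequencing, and those peaks were not examined here.

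**Figure D1:**
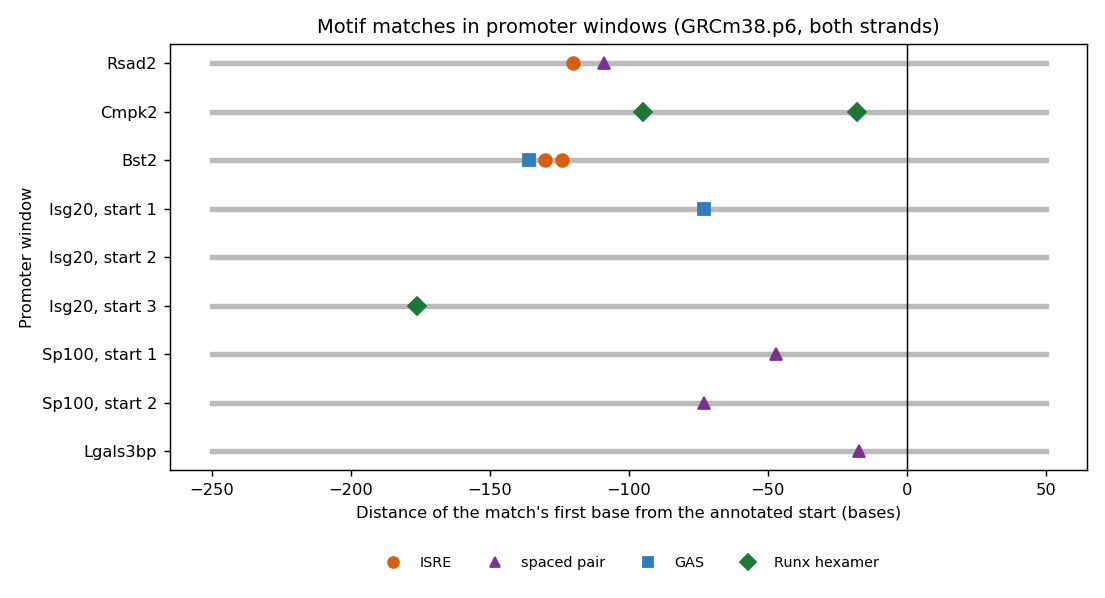
Matches to 4 motifs, the spaced pair added after the sequences had been seen, in the promoter windows of the 6 genes. The x axis is the distance in bases of the match's first base from the annotated start, grey bars are the windows from 250 bases before to 50 bases after the start, and symbols mark the motifs; ISRE cores appear for Rsad2 and Bst2, spaced pairs for Rsad2, Sp100 and Lgals3bp, and Runx hexamers for Cmpk2 and a start of Isg20.

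The array medians over all probe sets lay between 8.42 and 8.51 on the log2 scale, a closeness that quantile normalization within RMA imposes. Correlations between arrays of the same group were 0.998 to 0.999 across genes, which are not independent replicates. Osteoblast markers were present and moved with time in culture. Of the 9 markers measured, 6 rose between the days in control cells and 4 were lower with shRunx2 at day 9, beside 14.5% of all genes called higher between the days and 4.66% called lower with shRunx2. These 4 were Phex, an endopeptidase of mineralizing cells, which fell by 1.94 on the log2 scale, Ibsp (bone sialoprotein), which fell by 1.12, Alpl (alkaline phosphatase), which fell by 0.75, and Sp7 (osterix), which fell by 0.21 (limma, adjusted p = 4.7e-08 to 0.0090). Collagen transcripts Col1a1 and Col1a2 had differences of -0.03 and -0.01 and did not pass the test.

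All 6 antiviral genes had higher levels in shRunx2 than in Scr cells at day 9, and in each the lowest shRunx2 array lay above the highest Scr day 9 array. The differences ran from 0.28 for Isg20 to 1.30 for Sp100 on the log2 scale, with a median of 0.79, against a median of -0.004 over all 19937 genes. Over all genes, 2.73% were called higher and 4.66% lower in this comparison (limma, Benjamini-Hochberg adjusted p under 0.05), and 8.34% had all 3 shRunx2 arrays above all 3 Scr day 9 arrays. All 6 genes were among those called higher. Since the genes were chosen on this comparison, nothing is read from that count. By size of the log2 difference they ranked 16 (Sp100), 20 (Bst2), 40 (Rsad2), 60 (Cmpk2), 131 (Lgals3bp) and 281 (Isg20) from the highest. On bulk arrays, more RNA per cell and more cells of a kind that makes it cannot be told apart.

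Between day 0 and day 9 in Scr cells the 6 genes did not share a direction. Cmpk2, Bst2 and Lgals3bp were higher at day 9, Isg20 was lower, and the arrays of Rsad2 and Sp100 overlapped. Every Scr day 9 array lay above every Scr day 0 array for 18.15% of all genes and below for 22.04%. Over all genes 14.5% were called higher and 17.1% lower between these days, and the 6 genes counted 3 called higher, 1 called lower and 2 not called. Both comparisons use the Scr day 9 arrays, so they are given side by side and were not correlated.

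**Figure D2:**
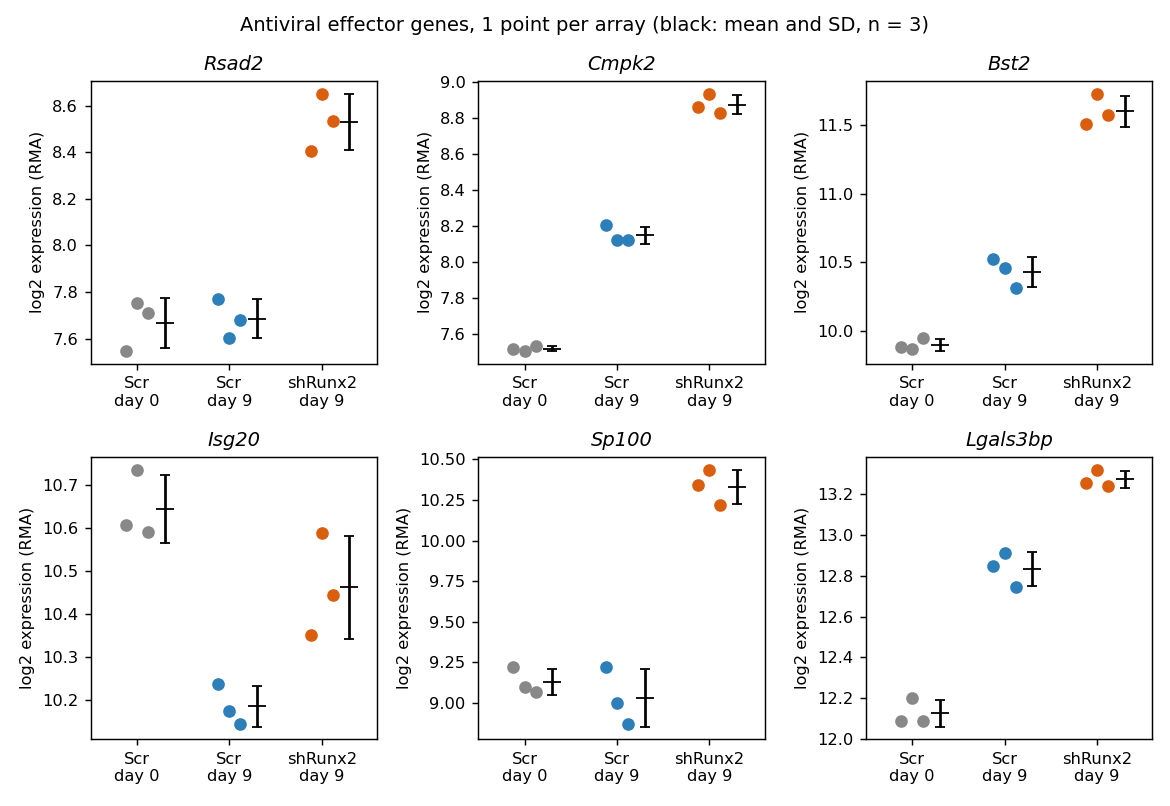
Levels of the 6 genes on every array. The y axis is log2 expression after RMA on a range of its own for each gene, coloured points are arrays of Scr day 0 (grey), Scr day 9 (blue) and shRunx2 day 9 (orange), and the black bar is the mean with its SD (n = 3); shRunx2 arrays lie highest for 5 genes, while Isg20 was highest at Scr day 0.

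Rsad2 was flat during differentiation and higher with shRunx2. Its log2 levels were 7.55, 7.75 and 7.71 on the Scr day 0 arrays and 7.77, 7.60 and 7.68 on the Scr day 9 arrays. The shRunx2 day 9 arrays read 8.41, 8.65 and 8.53. The Scr arrays of both days overlapped, and every shRunx2 array lay above every Scr array. Between shRunx2 and Scr cells at day 9 the difference was 0.84 ± 0.071 (SE; 1.79-fold), and between Scr day 9 and day 0 it was 0.02 ± 0.071. Under the alternative analyses the difference between the days lay between -0.07 and 0.06, so it has no settled sign. Rsad2 was a gene of low signal, at the 31.7th percentile of all genes by its mean over the 9 arrays.

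Cmpk2, the neighbour of Rsad2, was higher at day 9 than at day 0 in Scr cells, and higher in shRunx2 than in Scr cells at day 9. It read 7.51, 7.51 and 7.53 at Scr day 0, the tightest group among the 6 genes. It read 8.20, 8.12 and 8.12 at Scr day 9 and 8.86, 8.93 and 8.83 at shRunx2 day 9. No group overlapped another, and the order was Scr day 0, Scr day 9, shRunx2 day 9. The difference by day 9 in Scr cells was 0.63 ± 0.040 (SE; 1.55-fold), and that with shRunx2 at day 9 was 0.73 ± 0.040 (1.66-fold). The distance from Scr day 0 to shRunx2 day 9 was 1.36 (2.56-fold). Its mean lay at the 36.3th percentile.

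Bst2 showed the same order of groups with a larger difference between the day 9 groups. The Scr day 0 arrays read 9.88, 9.87 and 9.95, and the Scr day 9 arrays 10.52, 10.46 and 10.31. The shRunx2 arrays read 11.51, 11.73 and 11.57. Again no group overlapped another. The level was 0.53 ± 0.065 higher at day 9 in Scr cells (SE; 1.45-fold) and a further 1.17 ± 0.065 higher in shRunx2 cells (2.25-fold). From Scr day 0 to shRunx2 day 9 the difference was 1.70 (3.26-fold), and no other gene of the 6 had a larger one.

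Sp100 had the largest difference of the 6 between the day 9 groups and none that held up between days. Its levels were 9.22, 9.10 and 9.07 at Scr day 0 and 9.22, 9.00 and 8.87 at Scr day 9, which overlap. The shRunx2 day 9 arrays read 10.34, 10.43 and 10.22, all above every Scr array. The difference was 1.30 ± 0.084 with shRunx2 (SE; 2.46-fold) and -0.10 ± 0.084 between days. A second probe set is annotated to Sp100 and 4 other symbols, so its signal can come from near-identical copies. On it the arrays read 10.35, 10.44 and 10.27, then 10.64, 10.51 and 10.36, then 11.56, 11.67 and 11.57 in the same order of groups. There the difference with shRunx2 was 1.10 ± 0.076, and that between days was 0.15 ± 0.076, of the opposite sign to the first probe set.

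Lgals3bp rose more by day 9 than it differed with shRunx2, in size of the fitted values. It read 12.09, 12.20 and 12.09 at Scr day 0, 12.85, 12.91 and 12.74 at Scr day 9, and 13.25, 13.32 and 13.24 at shRunx2 day 9. The groups did not overlap. The difference by day 9 was 0.71 ± 0.051 (SE; 1.63-fold), and with shRunx2 it was 0.44 ± 0.051 (1.35-fold). It was among the genes of highest signal on the arrays, at the 98.7th percentile.

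Isg20 ran the other way during differentiation. Its Scr day 0 arrays read 10.61, 10.73 and 10.59, and its Scr day 9 arrays 10.24, 10.17 and 10.14, all below them. The shRunx2 day 9 arrays read 10.35, 10.59 and 10.44. They lay between the Scr groups, above every Scr day 9 array by at least 0.11 and below every Scr day 0 array by 0.0003 at the closest, which is no separation in practice. The level fell by 0.46 ± 0.061 by day 9 in Scr cells (SE; 1.37-fold lower) and was 0.28 ± 0.061 higher with shRunx2 (1.21-fold). Its call in the shRunx2 comparison was lost when replicate 2 or 3 of either day 9 group was left out, with differences from 0.21 to 0.33 over all alternatives, and when every probe set was tested.

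**Figure D3:**
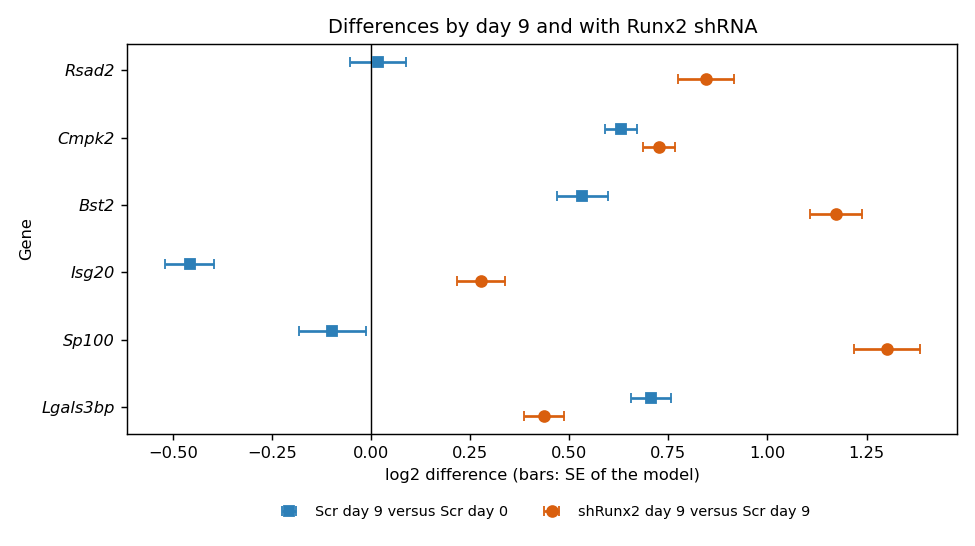
Fitted log2 differences of the 6 genes. The x axis is the log2 difference, blue squares give Scr day 9 minus Scr day 0, orange circles shRunx2 day 9 minus Scr day 9, and bars are the SE of the model on 9 arrays; Rsad2 and Sp100 lie near 0 between days and at 0.84 and 1.30 with shRunx2, and Isg20 alone of the 6 lies well below 0 between days.

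Set against Scr day 0 rather than Scr day 9, shRunx2 day 9 cells had higher levels of 5 of the 6 genes and a lower level of Isg20. Over all genes 13.8% were called higher and 20.4% lower in that comparison. Every shRunx2 array lay above every Scr day 0 array for 17.7% of all genes and below for 24.6%. The differences were 0.86 for Rsad2, 1.36 for Cmpk2, 1.70 for Bst2, 1.20 for Sp100, 1.14 for Lgals3bp and -0.18 for Isg20. The call for Isg20 was lost in 9 of 18 alternatives, among them leaving out replicate 1 or 2 of Scr day 0, replicate 2 or 3 of Scr day 9 and replicate 1 or 3 of shRunx2, each singly.

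Among themselves the genes were most alike in pairs. With each gene set to 0 at its Scr day 0 mean, Cmpk2 and Lgals3bp differed by a root mean square of 0.14 on the log2 scale over the 9 arrays, Cmpk2 and Bst2 by 0.22, and Rsad2 and Sp100 by 0.24. By the same measure over all genes, Rsad2 was most like Stat2 (0.10), Xaf1 (0.11) and H2-Q4 (0.13). Cmpk2 was most like Tnn, which encodes tenascin N (0.049), Lipg, endothelial lipase (0.073), and Ifih1, the RNA sensor MDA5 (0.074). Bst2 was most like Gstt1 (0.12), Oas1b (0.15) and Mx2 (0.16). Sp100 had no gene as close, with Xaf1 (0.21), Trim30d (0.21) and Herc6 (0.22) nearest. Lgals3bp was most like Prss12 (0.059), Ifit2 (0.060) and Tmem140 (0.066), and Isg20 was most like Inhba, the activin A subunit (0.053), Mlkl (0.061) and Plcb4 (0.062). These distances are descriptions over 9 shared arrays and grow with the size of a gene's own changes.

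Transcripts of the interferon pathway were read in order, from the ligands to the effectors. Over all genes, 2.73% were called higher and 4.66% lower with shRunx2, and 14.5% and 17.1% between days. None of 15 interferon ligand genes measured, of type I, II and III, was called between shRunx2 and Scr cells at day 9 or between days (limma). At an unadjusted p under 0.05 there were 3 in the shRunx2 comparison and 1 between days. Their differences with shRunx2 ran from -0.07 to 0.18, and the mean level of the list ranged from 7.57 to 7.71 over all arrays. For Ifnb1, the interferon beta gene, the group means were 7.22, 7.16 and 7.21, with a difference of 0.05 ± 0.060 (SE) with shRunx2. Of the 15, Ifnl2 was called with shRunx2 when Scr day 9 replicate 3 was left out, and Ifnab and Ifna13 were called between days when array medians were subtracted or quantile normalization was repeated. The list mean lay below the array medians. Ifna5 and Ifnl2 lay above them in every group, with Scr day 9 means of 9.54 and 9.77. Ifng lay above the medians of the Scr day 9 arrays, with a mean of 8.51 there. Ifna16 lay above those of the Scr day 0 arrays, with a mean of 8.48 there. Interferon protein and receptor activity were not measured, and whether the cultures held interferon was not tested.

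Of 6 interferon receptor genes, 1 was called higher with shRunx2 and 0 lower, beside 2.73% and 4.66% of all genes. It was Ifngr2, a chain of the interferon gamma receptor, at 0.20 ± 0.041 (SE; limma, adjusted p = 0.013). That call was lost without shRunx2 replicate 2 (adjusted p = 0.054). The receptor chains for type I interferon, Ifnar1 and Ifnar2, had differences of -0.12 and 0.01 and were not called.

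Of 13 genes of interferon signalling and its feedback, 4 rose with shRunx2 and 4 fell, beside 2.73% and 4.66% of all genes. Those that rose were Usp18, a protease that restrains the type I receptor, at 1.63 ± 0.12 (SE), Irf7, which drives interferon gene transcription, at 1.21 ± 0.099, Irf9 at 0.79 ± 0.056, and Stat2, the partner of Irf9, at 0.73 ± 0.056 (limma, adjusted p = 8.5e-06 to 2.38e-05). These 4 were called in every alternative run. Those that fell did so by less. Socs3, an inhibitor of cytokine receptors, fell by 0.30, Irf2 by 0.20, Irf3 by 0.19 and the kinase Jak1 by 0.16 (adjusted p = 0.010 to 0.043). The calls of Jak1, Irf2 and Irf3 were lost when Scr day 9 replicate 1, shRunx2 replicate 1 or shRunx2 replicate 2 was left out, those of Jak1 and Irf2 also without Scr day 0 replicate 2, Scr day 9 replicate 2 or shRunx2 replicate 3, that of Jak1 also without Scr day 9 replicate 3, and that of Irf2 also without Scr day 0 replicate 1 or 3. Socs3 was not called when all probe sets of a gene were averaged or tested. The other genes of the list were not called, with differences of 0.15 for Irf1, 0.07 for Socs1, -0.10 for Jak2, -0.03 for Tyk2 and -0.01 for Ptpn6.

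Most other antiviral effectors rose with shRunx2. Of 30 measured, 25 were called higher and 0 lower, beside 2.73% and 4.66% of all genes, and 27 had an unadjusted p under 0.05. Their median difference was 0.49, from -0.15 to 2.24. The list was written with earlier results of these arrays known, so its count is no independent evidence of direction. The genes with the smallest adjusted p were Ifit3, which binds viral RNA together with Ifit1, at 1.75 ± 0.061 (SE), Zbp1, a sensor of Z-form nucleic acid, at 1.28 ± 0.050, Oas1b, of the oligoadenylate synthetase family, at 1.16 ± 0.053, and Gbp3, a guanylate-binding GTPase, at 1.07 ± 0.052 (limma, adjusted p = 7.47e-08 to 6.66e-07). The 5 that were not called were Ifitm1 (-0.15), Ifitm2 (0.06), Oasl1 (0.17), Apobec3 (-0.10) and Shfl (0.02). Of the 25 calls, 21 held in every alternative run. Those of Samhd1, Trim25 and Mov10 were lost on leaving out shRunx2 replicate 2 or replicate 2 or 3 of Scr day 9, those of Samhd1 and Trim25 also without shRunx2 replicate 1 or 3, and that of Oas1a without shRunx2 replicate 3.

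Between days in Scr cells the same list was more mixed, with 17 genes called higher, 5 lower and 8 not called, beside 14.5% and 17.1% of all genes. The median was 0.26, from -0.54 for Ifitm1 to 2.52 for Ifit3. Of the 27 effectors with a RefSeq promoter window, 15 held the ISRE core, 3 the spaced pair, 7 the GAS element and 5 the Runx hexamer. Among all 27025 genes with a window the shares were 3.99%, 3.17%, 9.55% and 18.9%. The effectors were listed with earlier results of these arrays known, so nothing is read from these motif counts.

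**Figure D4:**
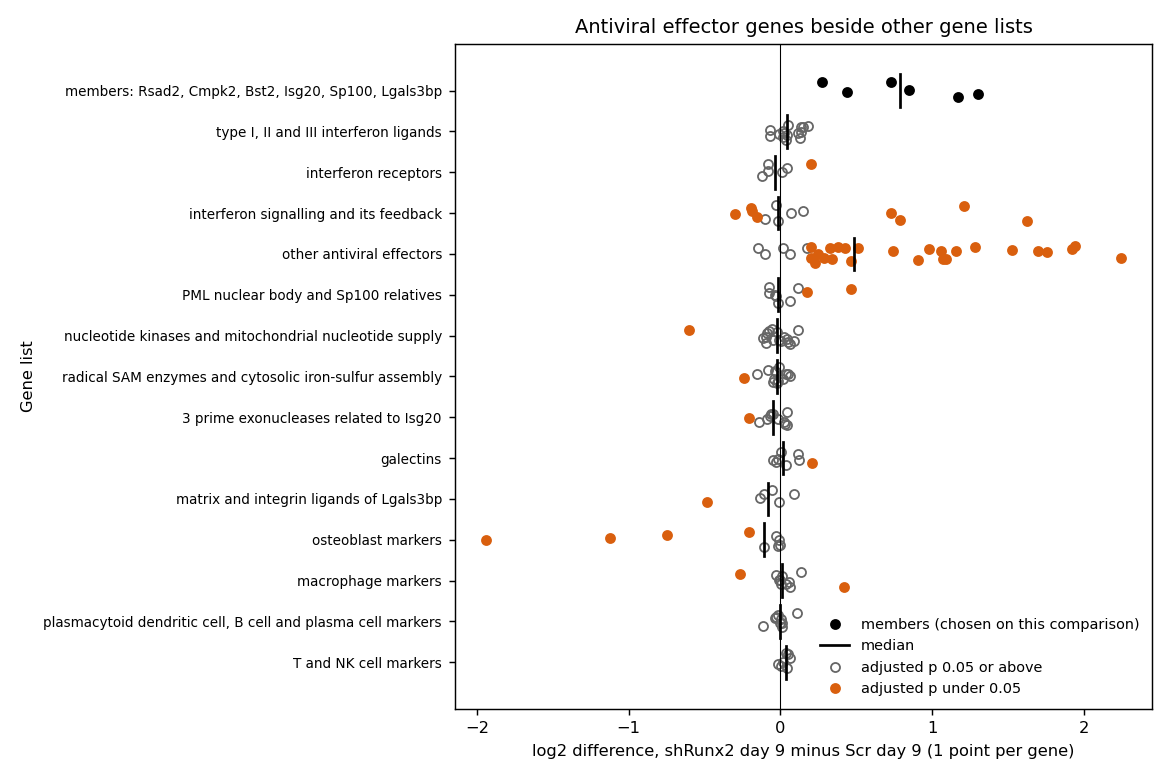
Log2 differences between shRunx2 and Scr cells at day 9 for the 6 antiviral genes and 14 other gene lists. The x axis is the log2 difference, each point is a gene, black points are the 6 genes, filled orange points passed an adjusted p of 0.05, open points did not, and black bars are medians; 25 of 30 other antiviral effectors are filled to the right of 0, while the 15 interferon ligands are all open and lie between -0.07 and 0.18.

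The families to which the 6 genes belong, by enzyme or by partner, were counted in the same comparison, in which 2.73% of all genes were called higher and 4.66% lower. Of 14 radical SAM enzymes and cytosolic iron-sulfur assembly factors, the relatives and suppliers of viperin, 0 were called higher with shRunx2 and 1 lower, Elp3, a subunit of the tRNA-modifying Elongator complex, which fell by 0.24 (limma, adjusted p = 0.0053). At an unadjusted p under 0.05 there were 2. Ciao1, a cytosolic iron-sulfur assembly factor, had a difference of -0.15.

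Of 17 nucleotide kinases and mitochondrial nucleotide suppliers beside Cmpk2, 0 were called higher and 1 lower, the mitochondrial adenylate kinase Ak4, which fell by 0.60 ± 0.048 (SE; adjusted p = 1.85e-05), and 6 had an unadjusted p under 0.05. Cmpk1, the cytosolic UMP-CMP kinase, had group means of 11.25, 11.16 and 11.11 and a difference of -0.06 ± 0.044. Tk2 and Dguok, the mitochondrial deoxynucleoside kinases, had differences of 0.12 and -0.05.

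Of 9 PML nuclear body genes and Sp100 relatives, 2 were called higher and 0 lower, Sp140, a paralogue of Sp100, at 0.47 ± 0.12 (SE) and the kinase Hipk2 at 0.17 ± 0.042 (limma, adjusted p = 0.042 and 0.032). Both calls were lost when any shRunx2 array, or replicate 2 or 3 of Scr day 9, was left out, and that of Sp140 also without Scr day 0 replicate 2. At an unadjusted p under 0.05 there were 2 genes. Pml itself, the scaffold of the bodies, had a difference of 0.06, and its partner Daxx one of -0.03. Of 11 exonucleases related to Isg20, 0 were called higher and 1 lower, Eri3, which fell by 0.21 (adjusted p = 0.034), a call lost on leaving out replicate 1 or 2 of either day 9 group. No other gene of that list had an unadjusted p under 0.05, and the Isg20 paralogues Isg20l2 and Aen had differences of -0.14 and 0.04.

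Of 8 galectins, a family that includes binding partners of Lgals3bp, 1 was called higher with shRunx2, Lgals9, at 0.21 ± 0.041 (SE; limma, adjusted p = 0.0090), and 0 lower, with 2 at an unadjusted p under 0.05. Lgals3 had a difference of 0.12 ± 0.042 and was not called. Between days Lgals3 fell by 0.56 and Lgals2 rose by 1.04. Of 6 matrix and integrin ligands of Lgals3bp, 0 were called higher and 1 lower with shRunx2, Nid1, a basement membrane protein, which fell by 0.49 ± 0.048 (SE), and 3 had an unadjusted p under 0.05. Fn1 and Itgb1 had differences of -0.01 and 0.09.

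Immune cells express these antiviral genes too, so their markers were measured beside them. Of 11 macrophage markers, 1 was called higher with shRunx2 and 1 lower, beside 2.73% and 4.66% of all genes. Lyz2 was higher by 0.42 ± 0.087 (SE; limma, adjusted p = 0.012), and Fcer1g fell by 0.27. Lyz2 was no longer called when replicate 2 or 3 of either day 9 group was left out. Ptprc, which encodes the pan-leukocyte antigen CD45, had group means of 7.33 and 7.32 in Scr and shRunx2 cells at day 9, and Adgre1 and Csf1r had differences of -0.03 and 0.01. The mean level of the macrophage list lay at 7.77 on every Scr day 0 array, at 7.82 to 7.85 on Scr day 9 arrays and at 7.86 to 7.89 on shRunx2 arrays. Lyz2 had the largest rise of the list in both comparisons, 0.80 between days and 0.42 with shRunx2. Between days Fcer1g rose by 0.50 and Cd14 fell by 0.32. The median difference of the list was -0.04 between days and 0.007 with shRunx2. None of 9 plasmacytoid dendritic cell, B cell and plasma cell markers and none of 7 T and NK cell markers was called between the day 9 groups, and 0 of them had an unadjusted p under 0.05 there. Their list means lay between 7.49 and 7.58 and between 7.40 and 7.53 over all arrays, below the array medians. The part of other cells in the levels of the antiviral genes was not tested.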

How the data were processed

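Total RNA of 9 cultures was profiled on Mouse Gene 1.0 ST arrays (Affymetrix). The deposited values are log2 expression per probe set, which the authors made by robust multichip average (RMA: background correction, quantile normalization and median polish) with the Bioconductor packages affy and limma. Their methods also name a filter without describing it, and the genome build behind the probe annotation is not given in the sources used here. Since only RMA values were used, the background correction could not be varied.

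Of 34760 probe sets, 21640 had 1 gene symbol in the platform annotation, 1321 had several and 11799 were unnamed here. For 954 genes with several probe sets, that with the highest mean was kept, which left 19937 genes, with no filter on level. A model of group means on all 9 arrays was fitted with limma 3.58.1 in R 4.3.3 (lmFit, eBayes, 6 residual degrees of freedom before moderation). Two-sided p-values were adjusted by Benjamini-Hochberg over all 19937 genes, and a gene was called at an adjusted p under 0.05. The script was tested on simulated data. Errors are SD over 3 arrays for levels and the model's SE for differences. Precision is limited by the number of arrays, since an array has no read depth. Array values carry a background floor, so fold differences of low genes are compressed.

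The 6 genes, the 14 gene lists (165 of 186 genes measured) and the comparisons were chosen with earlier results of these data known. From each list, up to 4 called genes with the smallest adjusted p with shRunx2 were named, with all genes of interferon signalling, relatives of the 6 genes, and the 3 genes most like each by root mean square difference. Genes not called, genes whose calls depended on the analysis and the marker genes without a call were named beside that rule. Alternatives comprised leaving out each array, a replicate block, only the compared groups, a level filter, rescaling, array weights, a trended robust fit and other uses of probe sets, and a second Sp100 probe set was added after seeing the data.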

Additional observations from a re-analysis of the deposited data

How the results depend on the processing

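The 6 antiviral genes were chosen on the shRunx2 comparison, so the sign of their differences there is no measure of stability. The low genes Rsad2 and Cmpk2 were not tested when the table was limited to genes above the median level. Over all genes, leaving out single arrays moved the calls with shRunx2 to 355 to 542 higher and 503 to 960 lower, from 544 and 930. The lowest counts came without Scr day 9 replicate 2 (355 higher, 503 lower), and 507 and 562 were lower without shRunx2 replicate 1 and Scr day 9 replicate 1. Array weights gave 917 higher and 1673 lower, testing every probe set 590 lower, and subtracting array medians 6136 lower in shRunx2 day 9 versus Scr day 0 (4063). Of the signalling genes, 1 to 3 were called lower with shRunx2 without single arrays, 2 with only the compared groups and 0 over every probe set. Called higher between days were 3 to 5 without single arrays (3 without Scr day 9 replicate 1) and 3 over every probe set. Of the other effectors, 0 to 1 were called lower with shRunx2 without single arrays, and 1, Ifitm1, above the median level, with medians subtracted, with a trended robust fit and with array weights. With genes above the median level, where fewer genes were tested, 10 rose between days. Subtracting medians gave Cmpk2 0.59 between days and 1.29 from Scr day 0 to shRunx2, and Lgals3bp 1.08, and a second quantile normalization gave Cmpk2 1.31. The second Sp100 probe set gave 1.10 with shRunx2 and 0.15 between days. The causes of these shifts were not tested.

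Replicate numbers did not pair the arrays: same-numbered arrays of different groups deviated together with r from -0.11 to 0.29 over genes, and 2 of 9 arrays were closest to their own number in both other groups. With the number as a replicate block, 543 genes were called higher and 907 lower with shRunx2, and of the genes named only Jak1 lost its call there; no call of the 6 genes changed. Counts for the other lists were recomputed 864 times, of which 761 were unchanged and none moved by more than 3 genes.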
